A study of Mus musculus with 12 samples.

Results

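Dchs1, its Fat cadherin relatives and the core planar polarity genes were followed through neurogenesis in the mouse cortex by their 5-methylcytosine (5mC), their 5-hydroxymethylcytosine (5hmC) and their expression. The 10 genes were Dchs1, Fat1, Fat3, Fat4, Celsr1, Celsr2, Celsr3, Vangl2, Prickle1 and Prickle2, out of 16293 genes in the deposited tables, and all peaks assigned to them as the nearest gene were taken. This gave 94 of 55085 5mC peaks and 101 of 47478 5hmC peaks, or 195 of 102563 in all. The number of peaks differed widely between the genes, from 47 of 5mC and 35 of 5hmC for Prickle1 to 2 and 1 for Celsr3, and Dchs1 had 1 and 5.

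The cells came from the cortex of E14.5 embryos that were double heterozygous for a Btg2-RFP and a Tubb3-GFP reporter, and every group carried both reporters. Proliferating progenitors (PP) were negative for both reporters, differentiating progenitors (DP) carried RFP but not GFP, and neurons carried GFP. The series lists 12 samples, 6 of immunoprecipitated and 6 of input DNA, that is 1 of each per cell type and mark, and it does not separate the biological replicates described in the study's methods. Sorting by reporter means that DP and neurons are defined by Btg2 and Tubb3 expression, and barcoded DNA from all cell types went into each pull-down together.

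Cadherins of the Dchs and Fat families are very large adhesion proteins. Dchs1 on one cell binds Fat4 on its neighbour, and the pair passes polarity and growth information, in part through the Hippo pathway. The core planar polarity system works beside them: Celsr proteins are seven-pass cadherins that bridge neighbouring cells, while Vangl2 and Prickle proteins gather on one side of the cell. In the cortex, Dchs1 and Fat4 are known for keeping progenitor number and neuronal migration in check, and Celsr3 is known for guiding axon tracts. 5mC is the common methylated form of cytosine, mostly at CpG dinucleotides, and 5hmC is its oxidised form, made by Tet enzymes and abundant in neurons.

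Levels are the authors' mean per cell type, on the log2 scale, of the normalised reads in a peak. The deposited tables hold no value per replicate, so none of the differences below was tested, no error can be given, and the depth behind each level is unknown. A difference is the later minus the earlier cell type, less the median difference over all peaks of the same mark. That median was small in most steps but was -0.18 for 5mC in neurons against DP and -0.17 in neurons against PP. A peak was counted as higher or lower when this centred difference was at least 0.58, or 1.5-fold. Since 1 value per cell type stands behind each of these counts, they describe these tables and are read against the same count over all peaks.

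The place that carries most of the Dchs1 pattern lies inside the gene. The study chose it from these same data and designed 2 guide RNAs to bring a dCas9-Tet1 fusion to it, so its levels are a description and no test of the pattern. The guides are shown because they mark the place in sequence. They target chr7:105777824-105778152 (mm10), a stretch of 329 bp that overlaps both peaks described next. The capitals mark the 12 bases at the 3′ end of each guide, next to the PAM, where pairing with the target matters most for Cas9.
Dchs1 guide 1: ttcatgtgGACTGACACAGC
Dchs1 guide 2: ccctattcTCCTTTCTTTCC
Neither 20-base guide contains a CpG.

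At this place 5mC was lower in both later cell types and 5hmC was higher. The single 5mC peak of Dchs1 (chr7:105777923-105778064, 9660 bp downstream of the transcription start site (TSS) used by the authors) had levels of 3.78, 1.49 and 1.23 in PP, DP and neurons, in that order here and below. The overlapping 5hmC peak (chr7:105777884-105778167) had levels of 5.30, 6.03 and 6.46. In the first step, PP to DP, the centred differences were -2.29 for 5mC and 0.73 for 5hmC. In the second step, DP to neurons, they were -0.08 and 0.45. Of the centred 5mC difference between PP and neurons, 96.3% lay between PP and DP, whereas the 5hmC difference was spread over both steps. Without centring the 5mC differences were -2.29 and -0.26 in the first and second step. The DP level of 1.49 was already far below the median of 5.05 over all 5mC peaks in DP. How far this limited the difference in the second step was not tested.

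Among all 5mC peaks, 12 were as low or lower in DP against PP, this peak included, and 343 were as low in neurons against PP. The 5hmC peak stood less apart, as 3938 of all 5hmC peaks were as high or higher in DP and 5330 in neurons. Of the 6735 places where peaks of both marks overlap, 4 showed a 5mC difference as low together with a 5hmC difference as high as the Dchs1 place from PP to DP, this place included, and 91 from PP to neurons. The 5mC peak was also one of the weakest by its mean level over the cell types, with only 3 5mC peaks lower. That mean includes the low levels in DP and neurons. In PP alone its level was 3.78, against a median of 5.06 over all 5mC peaks. The part of this low level in the size of the difference was not tested. The 5hmC peak was strong, with a mean level above that of 92.9% of all 5hmC peaks.

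The other 4 5hmC peaks of Dchs1 did not share 1 direction. The peak 8208 bp downstream of the TSS (chr7:105779386-105779506) had levels of 3.89, 4.40 and 4.60 in PP, DP and neurons, higher in each later cell type. The strongest peak in PP (chr7:105787941-105788109, 371 bp upstream of the authors' TSS but inside the RefSeq span of the gene) had levels of 6.43, 6.18 and 6.03. A peak 1130 bp upstream (chr7:105788709-105788858) was lowest in DP, with 4.21, 3.61 and 4.47. The peak 3162 bp upstream (chr7:105790754-105790879) had 4.50, 4.41 and 4.00. Both peaks deep inside the gene were thus higher in neurons than in PP by over 0.58, with centred differences of 1.24 and 0.78, while the 3 peaks around the 5′ end had differences from -0.41 to 0.34.

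**Figure D1:**
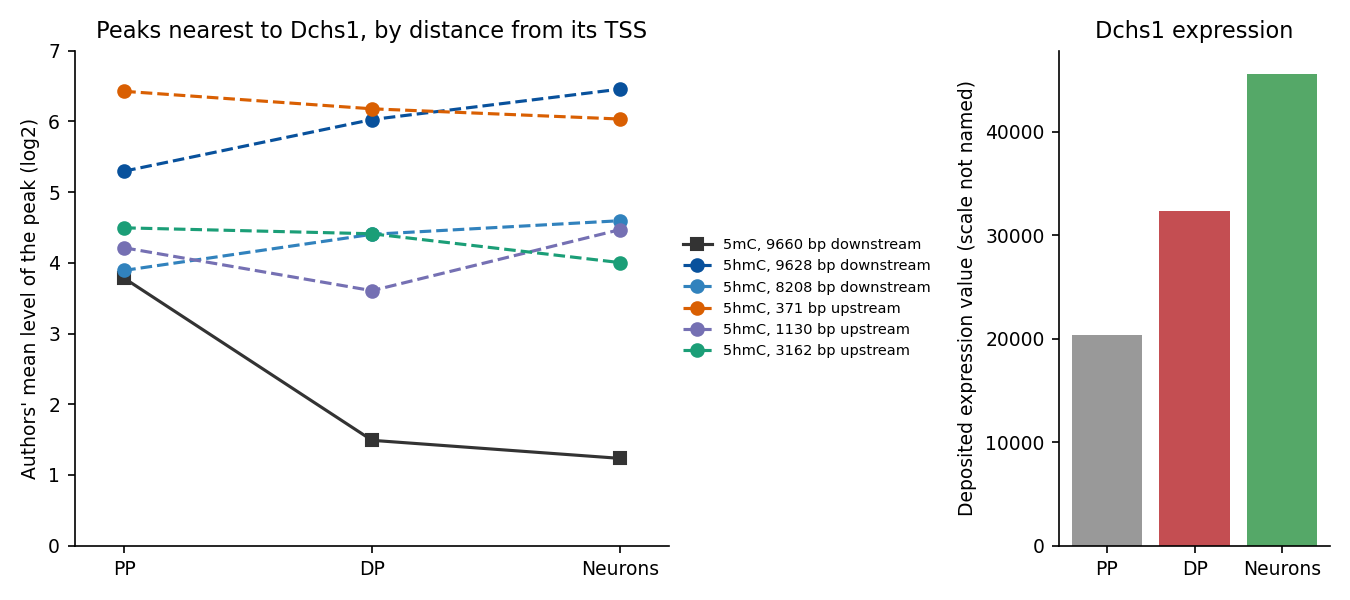
Left, the authors' mean log2 level of each Dchs1 peak in PP, DP and neurons (squares, 5mC; circles, 5hmC), named by distance from the TSS. Right, the deposited expression value of Dchs1 in the same cell types, on an unnamed scale. The 5mC peak stands at 3.78 in PP and 1.49 in DP, and the 5hmC peak 9628 bp downstream at 5.30 in PP and 6.46 in neurons.

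Dchs1 expression was higher in each later cell type. The deposited values were 20332.2, 32353.7 and 45538.0. The value was 1.59-fold higher after the first step, 1.41-fold higher after the second and 2.24-fold higher over both. These values come from earlier RNA-seq of the same group on cells sorted in the same way. They hold 1 value per cell type on a scale left unnamed, so folds are given within a gene. Levels of different genes are set against each other only in the measure of likeness below, and summed only for the cell markers. Beyond a centred log2 difference of 0.58, Dchs1 was higher from PP to DP (0.69) but not from DP to neurons (0.49). In sorted cells measured in bulk, a different share of cells of one kind and a different amount of RNA per cell cannot be told apart.

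The cell types of the earlier RNA-seq carried their markers in the expression columns. These values are not from the cells used for the marks. All 6 PP markers (such as Sox2 and Pax6) were highest in PP. All 5 DP markers (such as Eomes and Btg2) were highest in DP, and all 6 neuronal markers (such as Dcx and Tbr1) in neurons. Btg2 and Tubb3 are among these, and their reporters set the gates, so their values are no independent sign of the cell type. Markers of other cells had nonzero values. Summed over 4 endothelial markers the values were 398.9, 325.8 and 91.8 in PP, DP and neurons. Over 3 of 4 microglial markers they were 326.9, 203.1 and 79.7, and over 2 pericyte markers 1314.4, 330.7 and 86.0. For 3 oligodendrocyte precursor markers the sums were 326.2, 445.5 and 36.1. Markers of other neurons were highest in the neuron gate, with sums of 898.2, 3434.3 and 9243.5 over 3 of 5 interneuron genes, while Reln, made by Cajal-Retzius cells, had 185.9, 1387.9 and 36007.4. No listed marker in the tables was at 0 in any cell type, the lowest being 0.7 for Olig1 in neurons. The endothelial, microglial, pericyte and oligodendrocyte precursor sums were lowest in neurons, as Fat1, Celsr1 and Vangl2 were. The interneuron and Reln values were highest there, as 7 of the genes were. The part of such other cells in the results was not tested.

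Of the Fat cadherins, Fat4, the binding partner of Dchs1, was also highest in neurons but, unlike Dchs1, lowest in DP. Fat4 expression was 17916.6, 12708.1 and 43231.1, a ratio of 0.709 for DP over PP and 3.40 for neurons over DP. Fat3, known in the nervous system for shaping neuronal processes, was 6738.1, 9152.7 and 33525.4, or 4.98-fold higher in neurons than in PP. Fat1, a Fat cadherin of apical junctions in epithelia and progenitors, ran the other way with 30220.2, 22259.4 and 1536.3, a value 19.7-fold lower in neurons than in PP. From PP to DP the log2 differences of Fat1 (-0.42), Fat3 (0.46) and Fat4 (-0.48) all stayed under 0.58, so Dchs1 was the one member of this cadherin group past that size in the first step.

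The Celsr genes parted in a similar way. Celsr1, the family member of dividing progenitors, was 58974.5, 63726.6 and 6506.0 in PP, DP and neurons, 9.80-fold lower in neurons than in DP. Celsr2 was 22813.7, 34831.9 and 35701.9, 1.53-fold higher in DP than in PP and 1.02-fold higher in neurons than in DP. Celsr3, which acts in axon guidance, was 1308.9, 14501.6 and 45857.6, 11.1-fold higher in DP and 35.0-fold higher in neurons than in PP. In the Celsr family, then, Celsr1 was highest in DP while the other 2 were highest in neurons.

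Vangl2, a transmembrane protein of the core polarity complex, differed least between DP and PP, with 27709.2, 26228.1 and 18016.0. Its cytoplasmic partners had their lowest values in PP and their highest in neurons. Prickle1 had 170.4, 223.5 and 2091.5, 12.3-fold higher in neurons than in PP, and Prickle2 had 85.5, 201.9 and 1727.6, 20.2-fold higher. For both, most of the difference lay between DP and neurons, at 9.36-fold and 8.56-fold.

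**Figure D2:**
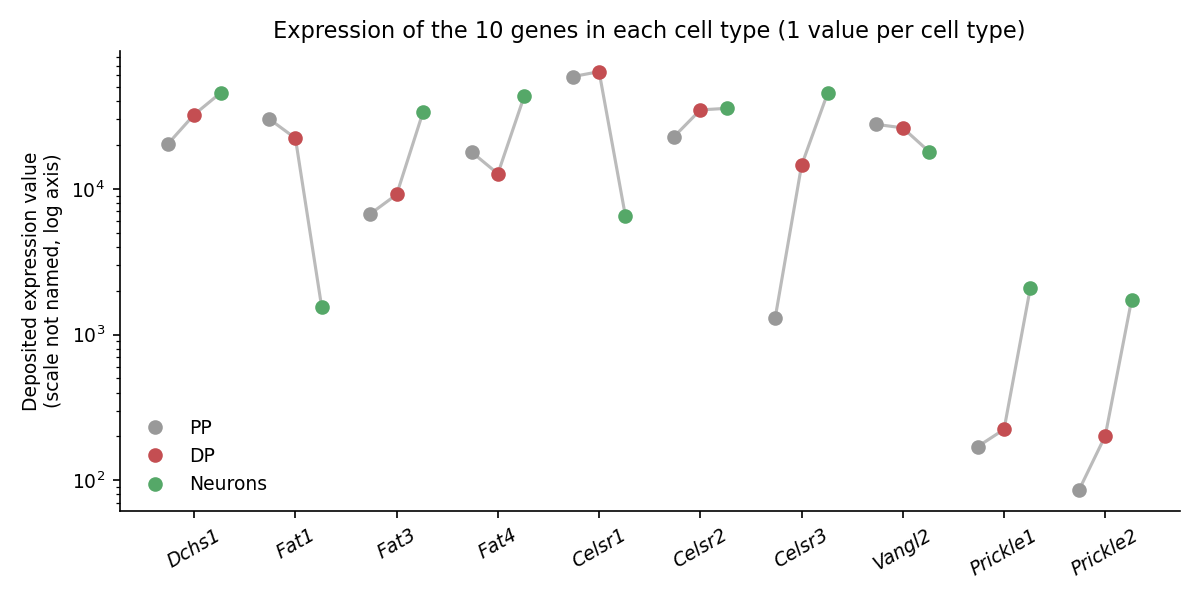
Deposited expression value of each of the 10 genes in PP, DP and neurons, on a log axis and in unnamed units, with 1 point per cell type and lines joining the points of a gene. Fat1 and Celsr1 are lowest in neurons at 1536.3 and 6506.0, and Vangl2 is also lowest there, while the other 7 genes are highest in neurons.

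By the count of genes past a centred log2 difference of 0.58, 4 of the 10 were higher in DP than in PP (Dchs1, Celsr2, Celsr3 and Prickle2), against 14.3% of all genes, and 0 were lower, against 16.6%. From DP to neurons 5 were higher (Fat3, Fat4, Celsr3, Prickle1 and Prickle2), against 26.2%, and 2 were lower (Fat1 and Celsr1), against 26.4%. Over both steps 7 were higher in neurons than in PP, against 30.2%, and 3 were lower, against 31.1%. The third of these lower genes was Vangl2, with a log2 difference of -0.61.

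Between PP and neurons, 30 of the 101 5hmC peaks (29.7%) were higher by at least 0.58, against 22.2% of all 5hmC peaks, and 6 (5.94%) were lower, against 7.91%. Each of the 10 genes had at least 1 of the higher peaks, as had 40.6% of all 12848 genes with a 5hmC peak, a share that depends on the number of peaks of a gene. By step, 14 (13.9%) were higher in DP than in PP, against 11.3%, and 5 (4.95%) were lower, against 4.77%. From DP to neurons 24 (23.8%) were higher, against 16.6%, and 8 (7.92%) were lower, against 7.22%. The first step was close to the background in both directions, and in the second the share of higher peaks lay above it. Prickle1 alone gave 10 of these 24 peaks, and without it 14 of 66 (21.2%) were higher.

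For 5mC the genes as a group stayed near the background. From PP to DP 3 of 94 peaks (3.19%) were lower, against 5.56%, and 4 (4.26%) were higher, against 4.72%. The 3 lower peaks belonged to Dchs1, Fat1 and Prickle1. From DP to neurons 10 (10.6%) were lower, against 9.48%, and 3 (3.19%) were higher, against 5.23%. Without centring the same step had 15 lower (16.0%, against 15.8% of all 5mC peaks) and 1 higher (1.06%, against 2.32%). Over both steps 13 (13.8%) were lower in neurons than in PP, against 10.4%, and 8 (8.51%) were higher, against 5.15%. Without centring these were 18 (19.1%, against 16.6%) and 2 (2.13%, against 2.17%). The median centred difference over the 94 peaks was 0.03, while the Dchs1 peak stood at -2.38.

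**Figure D3:**
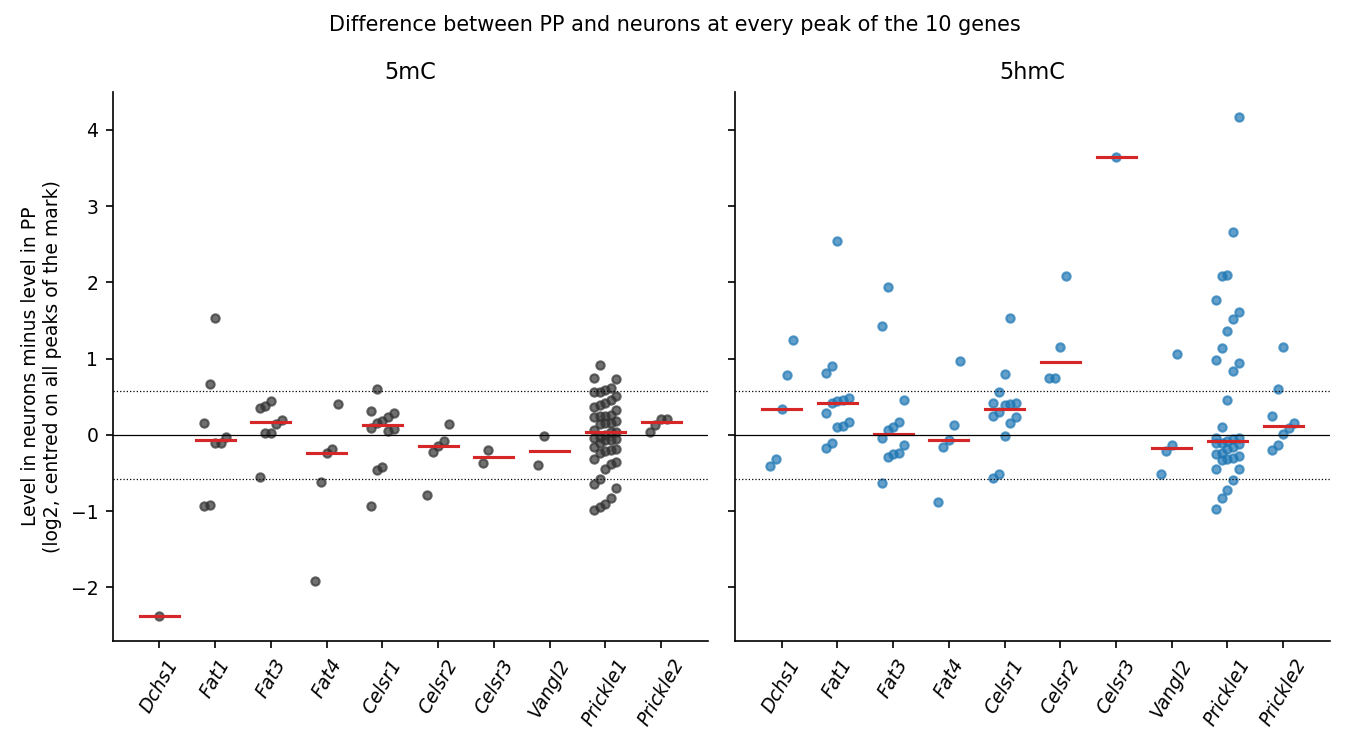
Centred log2 difference in level between neurons and PP at every 5mC (left) and 5hmC (right) peak of the 10 genes, with 1 point per peak, red bars at the median of a gene and dotted lines at 0.58 in either direction. The Dchs1 5mC peak at -2.38 is the lowest point of the left panel, and the Prickle1 peak at 4.17 and the Celsr3 peak at 3.65 are the highest of the right panel.

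Fat4 had 5 peaks of each mark, all upstream, between 13.2 kb and 153 kb from the TSS. Its 5mC peak 13233 bp upstream (chr3:38873619-38873798) had levels of 4.23, 4.49 and 2.15. Unlike at Dchs1, the lower level was thus seen between DP and neurons, with a centred difference of -2.16. That peak was also weak, with a mean level above that of only 1.67% of 5mC peaks. The 5hmC peak of Fat4 that differed most (chr3:38820625-38820739) had 3.61, 3.84 and 4.50.

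At Fat1, too, the marks ran in opposite directions at one place. Some 50 kb upstream of its TSS a 5mC peak (chr8:44900142-44900273) had levels of 6.55, 6.38 and 5.45 in PP, DP and neurons, and the 5hmC peak overlapping it (chr8:44900198-44900360) had 4.13, 5.56 and 6.59. Here 5hmC was already higher in DP, by 1.43, and the 5mC difference was larger in the second step, at -0.75 against -0.17 in the first. Both marks had the directions seen at Dchs1, while Fat1 expression was 19.7-fold lower in neurons. Another Fat1 5mC peak 58829 bp upstream (chr8:44891272-44891489) went the other way, with 3.22, 4.44 and 4.59. Only 36 5mC peaks were as high or higher in neurons against PP. Its mean level was above that of only 9.17% of 5mC peaks.

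Fat3 had 8 5mC and 12 5hmC peaks, up to 315 kb from the TSS. None of the 5mC peaks differed by 0.58 between PP and neurons. Over all 5mC peaks 10.4% were lower and 5.15% higher by that size, so with so few peaks this does not set Fat3 apart. The 5mC peak that differed most in a single step (chr9:16475359-16475509) had 4.75, 4.94 and 4.03. Its 5hmC peaks were lower in neurons than in DP at most places, with a median of -0.31. Against that, a peak 30777 bp inside the gene (chr9:16347386-16347522) had 2.44, 3.03 and 4.30, higher in each later cell type. That peak was weak, with a mean level above that of only 1.94% of 5hmC peaks.

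At the Celsr genes the 5hmC peaks lay inside the gene bodies. Celsr2 had 4 5hmC peaks, all inside the gene, and all 4 were higher in neurons than in PP by 0.74 to 2.09. Over all 5hmC peaks 22.2% were higher by at least 0.58. The highest difference was at chr3:108406959-108407300, with levels of 4.81, 5.61 and 6.81. The 5mC peak within it had 6.39, 6.31 and 6.08, a centred difference of only -0.15, so at this place 5hmC was higher while 5mC differed little. A Celsr2 5mC peak 10681 bp upstream lies in the span of another gene, Sars, and had 4.81, 4.60 and 3.85.

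Celsr3 had the fewest peaks and a large 5hmC difference. Its only 5hmC peak (chr9:108833919-108834047, 7662 bp inside the gene) had levels of 1.14, 2.27 and 4.71, and 432 5hmC peaks were as high or higher in neurons against PP. Its mean level was above that of only 0.546% of 5hmC peaks. Of its 2 5mC peaks, the one inside the gene (chr9:108829535-108829683) had 5.28, 5.55 and 4.73. Celsr1 had 12 5mC and 14 5hmC peaks, and the 5hmC peak 1262 bp downstream of its TSS (chr15:86032397-86032633) had 4.60, 5.55 and 6.05. That peak was higher in neurons although Celsr1 expression was 9.06-fold lower there than in PP. The Celsr1 5mC peak that differed most (chr15:85973804-85973942) had 5.62, 5.57 and 4.52.

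Vangl2 had few peaks. Its 2 5mC peaks lay inside the gene with differences between PP and neurons of -0.40 and -0.01, the first (chr1:172009406-172009592) with levels of 5.33, 5.00 and 4.76, and 3 of its 4 5hmC peaks were lower in neurons, with differences from -0.51 to -0.14. The exception (chr1:172012897-172013048) was lowest in DP, with 3.81, 3.31 and 4.79, and was higher in neurons than in PP by 1.06. Prickle2 had 4 5mC peaks with differences from 0.04 to 0.21. Of its 8 5hmC peaks, 2 were higher in neurons than in PP by at least 0.58, against 22.2% of all 5hmC peaks. A place inside the gene (chr6:92565366-92565540) had 5mC levels of 5.58, 6.06 and 5.62 under a 5hmC peak with 5.03, 4.26 and 5.04. A Prickle2 5hmC peak 133983 bp inside the gene (chr6:92572054-92572270) had 4.86, 5.22 and 5.93.

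Prickle1 had 47 5mC and 35 5hmC peaks, most of them far upstream, up to 430 kb from the TSS, where it was merely the nearest gene. Its 5hmC peak 90878 bp inside the gene (chr15:93504958-93505068) had the highest difference of any member, with levels of 1.20, 2.53 and 5.28. A second (chr15:94007227-94007419, 411432 bp upstream) had 1.90, 2.43 and 4.48. Like the Celsr3 peak, both were weak, above only 1.09% and 0.944% of 5hmC peaks in mean level. Of the 35 5hmC peaks, 12 were higher and 4 lower in neurons than in PP by at least 0.58, against 22.2% and 7.91% of all 5hmC peaks. Their median difference was -0.08. Among the 47 5mC peaks, 6 were lower and 5 higher by that size, against 10.4% and 5.15% of all 5mC peaks, with a median of 0.04. The largest single step (chr15:93929135-93929270, 333311 bp upstream) had 4.72, 3.64 and 3.65, lower in DP as at Dchs1. This peak was also weak, above only 7.07% of 5mC peaks in mean level.

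Promoter windows from RefSeq were used for 8 of the genes (Fat1, Fat3, Fat4, Celsr2, Celsr3, Vangl2, Prickle1 and Prickle2), 12 windows in all. No peak of either mark overlapped any of them. The share of all windows without a peak was not counted, so this is no result about the genes. Each window runs from 250 bases before to 50 after an annotated start, 300 bases in all, on GRCm38.p6, which is the assembly called mm10. Windows are shown for Celsr2, Celsr3 and the 5′ end of Prickle1. Of the 8 genes, these had the largest differences between PP and neurons at a 5hmC peak inside the gene. They were higher in neurons by 2.09, 3.65 and 4.17, and Fat3 came next at 1.94. Each CpG is in capitals, since CpGs are where both marks mostly sit.
Celsr2 (chr3:108415530-108415829, minus strand): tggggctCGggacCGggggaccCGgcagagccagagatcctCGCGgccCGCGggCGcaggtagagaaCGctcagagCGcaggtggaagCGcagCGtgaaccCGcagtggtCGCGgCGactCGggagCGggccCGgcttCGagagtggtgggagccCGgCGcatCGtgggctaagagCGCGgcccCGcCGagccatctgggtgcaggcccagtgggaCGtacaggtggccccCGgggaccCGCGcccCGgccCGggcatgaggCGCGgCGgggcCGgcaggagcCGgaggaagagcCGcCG
Celsr3 (chr9:108825795-108826094, plus strand): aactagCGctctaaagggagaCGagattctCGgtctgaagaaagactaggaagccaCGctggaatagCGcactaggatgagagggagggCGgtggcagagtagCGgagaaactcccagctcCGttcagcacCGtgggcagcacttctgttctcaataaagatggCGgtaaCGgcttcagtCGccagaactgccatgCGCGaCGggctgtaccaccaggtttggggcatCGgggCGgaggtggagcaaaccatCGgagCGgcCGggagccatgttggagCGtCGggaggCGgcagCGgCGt
Prickle1 (chr15:93595853-93596152, minus strand): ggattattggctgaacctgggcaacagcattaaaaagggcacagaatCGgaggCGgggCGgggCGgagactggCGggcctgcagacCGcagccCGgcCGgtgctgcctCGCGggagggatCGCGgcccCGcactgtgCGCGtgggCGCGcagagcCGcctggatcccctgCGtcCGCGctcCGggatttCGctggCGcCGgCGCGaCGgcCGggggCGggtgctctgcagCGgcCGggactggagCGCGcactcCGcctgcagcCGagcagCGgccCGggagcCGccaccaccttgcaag
The Celsr2 window held 40 CpGs, the Celsr3 window 25 and the Prickle1 window 39, against a median of 7 over 32851 windows. The share of windows with fewer CpGs was 96.1%, 81.6% and 95.6%. The windows not shown held from 2 CpGs (Fat1) to 35 (Fat3). For the windows shown, the nearest 5hmC peaks lay 760, 7825 and 8029 bp away, so the differences above were measured outside these CpG-rich starts.

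At 16 places a 5mC and a 5hmC peak of the same member overlapped. In 10 of them (62.5%), at 5 genes, 5mC was lower and 5hmC higher in neurons than in PP, against 51.5% of all such places in the tables. When both differences had to reach 0.58, 4 places remained (25%), against 19.0%. These were the Dchs1 place, the Fat1 place 50 kb upstream, and a pair at Prickle1. The first Prickle1 place (chr15:93581124-93581246, 14.7 kb inside the gene) had 5mC levels of 5.32, 5.24 and 4.20 and 5hmC levels of 3.17, 4.33 and 4.45. The second (chr15:93857390-93857521, 262 kb upstream) had 4.12, 3.88 and 3.12 for 5mC and 3.76, 4.09 and 5.20 for 5hmC. Its 5mC peak was weak, with a mean level above that of only 2.38% of 5mC peaks. The 4 places did not share 1 order of steps. At Dchs1, whose 5mC peak was one of the weakest in mean level over the cell types, the lower 5mC was seen in DP. At the other 3 it lay mainly between DP and neurons.

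**Figure D4:**
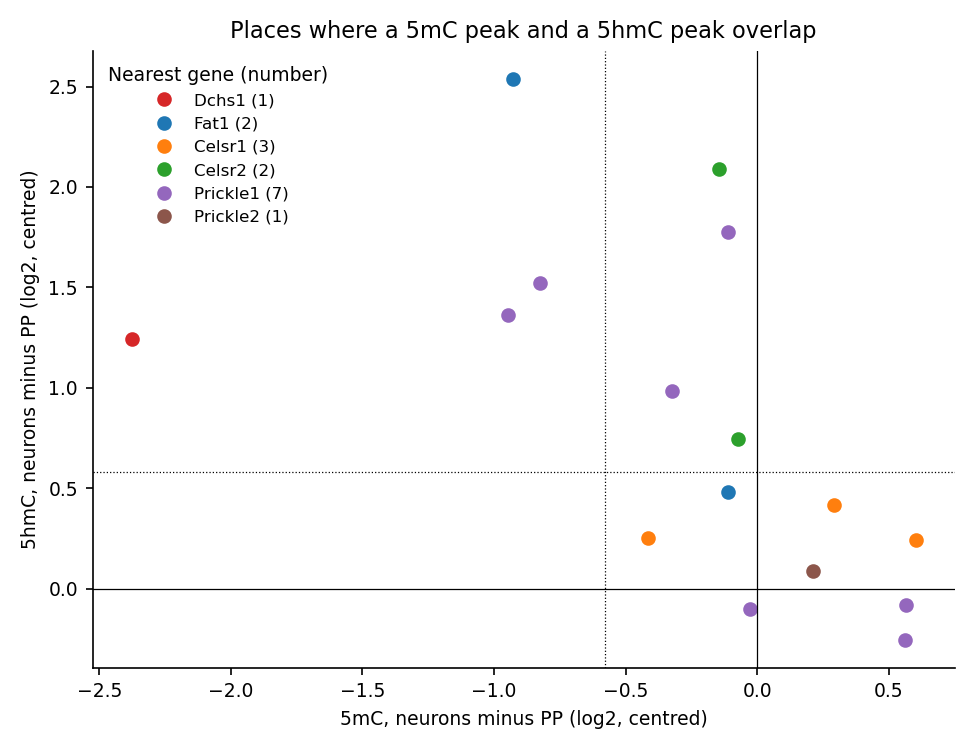
Centred log2 difference between neurons and PP of 5mC (horizontal) and 5hmC (vertical) at the 16 places where peaks of both marks overlap, coloured by nearest gene, with dotted lines at -0.58 and 0.58. The Dchs1 place, at -2.38 and 1.24, lies far to the left of all others, and the Fat1 place at -0.93 and 2.54 is the highest.

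Across the 10 genes the median difference of the peaks had almost no rank relation to expression. Spearman's rho between the median centred difference and the log2 expression difference from PP to neurons was 0.02 for 5mC and -0.05 for 5hmC. Genes are not independent replicates, Celsr3 and Dchs1 rest on 1 peak of a mark, and no p is given. Fat1 and Celsr1, both lower in neurons, had median 5hmC differences of 0.42 and 0.34, while Fat4 and Prickle1, both higher, had -0.07 and -0.08.

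The genes whose expression was most like Dchs1 over the 3 cell types were taken by the smallest distance of log2 values, which compares level as well as course and is not corrected for gene length. Over all 16292 other genes these were Macf1, a giant linker of the cytoskeleton, Auts2, a regulator of neuronal development, Smarcc2, a subunit of the BAF chromatin remodelling complexes, Fscn1, an actin bundling protein, and Odz4, a teneurin. Their distances ranged from 0.24 to 0.37. Macf1, the nearest, had 22362.9, 28292.4 and 45635.7 in PP, DP and neurons. Among the other 9 members Celsr2 was nearest at 0.40, and the next, Fat4, lay at 1.36.

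Other polarity genes showed mixed directions. Of 29 other planar polarity and Dchs-Fat genes, 23 were in the tables. From PP to DP 2 were higher (Wnt5a, a secreted ligand, and Ankrd6) and 2 lower (Intu and Fat2), against 14.3% and 16.6% of all genes. In the second step 4 were higher and 9 lower, against 26.2% and 26.4%, with a median of -0.24 against 0 by centring. Fjx1, a Fat-Dchs modulating kinase of the Golgi, had 3155.0, 2304.3 and 3502.0, and Fat2 was listed at 4.0, 1.2 and 1.3. At these genes 26 of 86 5hmC peaks (30.2%) were higher in neurons than in PP, against 22.2% of all, and 2 (2.33%) lower, against 7.91%. Of 98 5mC peaks 6 (6.12%) were lower, against 10.4%, and 3 (3.06%) higher, against 5.15%.

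Hippo genes, downstream of Fat4 and Dchs1 in growth control, were mostly lower in neurons. Of 20 listed, 19 were in the tables, and from DP to neurons 12 were lower and 2 higher, against 26.4% and 26.2% of all genes, with a median of -0.96. In the first step 4 were lower and 0 higher, against 16.6% and 14.3%. The co-activators Yap1 (9457.1, 5478.6 and 346.1) and Wwtr1 (6663.5, 3833.6 and 53.0) were lower in each later cell type. Their target Ccn1, listed as Cyr61 (9149.9, 3807.0 and 52.8), was too. The 2 higher genes were the upstream regulators Nf2 (6479.5, 7488.6 and 12568.9) and Wwc1 (5220.7, 6549.6 and 13602.9). Other members upstream of Yap1 did not follow them. Lats2 (2392.4, 1619.9 and 1174.1) and Sav1 (2374.3, 1835.3 and 1352.4) were lower in each later cell type. Lats1 (6007.8, 6688.1 and 6139.3) differed little. At their peaks 19 of 67 5hmC peaks (28.4%) were higher in neurons than in PP, against 22.2% of all, and 1 (1.49%) was lower, against 7.91%. Of 49 5mC peaks 5 (10.2%) were lower, close to the 10.4% of all, and 2 (4.08%) higher, against 5.15%.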

How the data were processed

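MeDIP and hMeDIP, which pull down sheared DNA with an antibody to 5mC or 5hmC, were done by the authors on PP, DP and neurons. Per the labels and the paper's methods, the authors aligned reads to mm10 (BWA 0.7.8-r455), called peaks (SICER 1.1), compared cell types in DiffBind and assigned peaks to the nearest TSS (HOMER 4.7). The deposited level columns hold log2 mean normalised levels per cell type. The deposited expression columns hold a score on an unnamed scale, and the deposited distance column a score in bp. The authors' own comparison columns (log2 fold changes and p-values for 3 pairs of cell types, and expression changes for 2) were not used.

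Differences of levels were centred on the median of all peaks, and expression differences were log2 of (value + 1), centred likewise. Both used a minimum of 0.58. Peaks overlapped at 1 bp or more. No test was made. The members and lists were chosen with earlier results of these data known. Named peaks were all peaks of Dchs1, for the other genes the peak of each mark with the largest centred difference in a single step, and overlapping peaks; a few others were added after their values were seen. Genes most like Dchs1 were the 5 at the smallest distance. Promoter windows came from RefSeq, and guides from the study's supplement. Alternatives were another fold minimum, a level filter, no centring, peaks inside genes, larger overlaps and another pseudocount. The steps were checked on simulated data. Python 3.11.15, pandas 2.3.3, numpy 2.4.6 and matplotlib 3.10.9 were used.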

Additional observations from a re-analysis of the deposited data

How the results depend on the processing

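With a minimum of 1 (2-fold) in place of 0.58, the 5mC peaks numbered 1 higher from PP to DP, and 1 lower and 0 higher from DP to neurons. The 5hmC peaks numbered 5 higher and 0 lower from PP to DP, and 11 higher and 0 lower from DP to neurons. Over all 5hmC peaks the differences in that last step were also uneven, with 5th and 95th percentiles of -0.67 and 1.27. In expression, 2 genes were higher from PP to DP. For this minimum, the level filter and the peaks inside genes, the share over all peaks is not given. These counts are therefore no result about the genes. Leaving out the peaks in the lowest 25% of mean level, which removes the Dchs1 5mC peak, left 1 lower 5mC peak from PP to DP, and for 5hmC 3 lower and 9 higher from PP to DP and 15 higher from DP to neurons. Among peaks inside a gene, 5mC had 1 lower and 1 higher from PP to DP and 5 lower and 0 higher from DP to neurons, and 5hmC had 2 lower from PP to DP and 2 lower and 12 higher from DP to neurons. Without centring, 15 5mC peaks were lower and 1 was higher from DP to neurons, in place of 10 and 3. Leaving out Prickle1, chosen after seeing the data, left 47 5mC and 66 5hmC peaks. Of the 5mC peaks, 6 (12.8%) were lower from DP to neurons, against 10.6% with Prickle1 and 9.48% of all 5mC peaks. Of the 5hmC peaks, 2 (3.03%) were lower in each step, against 4.95% and 7.92% with it. Over all 5hmC peaks the shares were 4.77% and 7.22%. From DP to neurons 14 (21.2%) were higher, against 23.8% with Prickle1 and 16.6% of all 5hmC peaks. With Prickle1 kept, 4 of the shared places had both marks past 0.58. Counting repeated rows once, a pseudocount of 10 and a minimum expression value of 10 moved no count by over 1.5 times. Taking the highest peak without centring in place of the median moved 24 of 40 gene medians by over 0.1. Leaving out a replicate was not run, as no value per replicate is given. No paired analysis was possible because the labels give 1 sample per cell type and the columns carry no replicate.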
